A study of Mus musculus with 6 samples.

Results

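The mitochondrial genome of the mouse is a small circular DNA with its own gene set. Its transcripts were chosen by 1 rule, that the count table places the gene on chromosome MT. The rule found 37 of the 54532 genes in the table: 13 protein-coding genes, 2 ribosomal RNA (rRNA) genes and 22 transfer RNA (tRNA) genes. All 37 stand at the same position in the GENCODE vM21 annotation of GRCm38. The RNA came from leptotene/zygotene (L/Z) spermatocytes, germ cells in the first stages of meiotic prophase, that were sorted by Hoechst fluorescence from testes of mice at 12 days postpartum. There were 3 libraries labelled wild type, called Control here, and 3 from Eef1g-cKO males. In Eef1g-cKO males exons of Eef1g, the gene of a subunit of elongation factor eEF1, were floxed on a C57BL/6J background and deleted by Stra8-GFPCre, a recombinase driven by a promoter of premeiotic and early meiotic germ cells. The paper describes the controls for the sorted cells as littermates. The sources do not say whether Control males carried the floxed allele or Cre, or how many animals made up a library, so the p-values measure the spread between these libraries.

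Both strands of mitochondrial DNA are transcribed by the polymerase POLRMT, with the packaging and initiation factor TFAM, into long RNAs that span most of the circle. The tRNAs lie between most of the other genes, and their excision releases the mRNAs and rRNAs. Most of the mRNAs then receive a poly(A) tail. The 13 mRNAs encode core subunits of respiratory complexes I, III and IV and of the ATP synthase, and they are translated by mitochondrial ribosomes that carry the 12S rRNA (mt-Rnr1) and the 16S rRNA (mt-Rnr2). All other proteins of the organelle come from nuclear genes. Libraries here were made from poly(A)-primed, amplified cDNA, so a read share describes polyadenylated or internally primed RNA and not all mitochondrial RNA.

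Several coding genes share bases with a neighbour or match nuclear DNA almost letter for letter, and the sequences below show where a read could be given to more than 1 gene. Sequences are from GRCm38 and read 5′ to 3′. On chromosome 1 a stretch of 4663 bases (chr1:24611535-24616197, minus strand) holds 7 annotated copies of coding genes, 5 of them with no mismatch over the aligned bases. Over the aligned bases the 2 with a mismatch each differ at 1 base, in capitals. It is T3C from mt-Nd3 to Gm28438 and A1066T from mt-Co1 to Gm29216. Positions are counted from 1 at the first base of the mitochondrial gene. The alignment of Gm29216 starts at its base 10, so the bases before it were not compared.
mt-Nd3: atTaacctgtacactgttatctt
Gm28438: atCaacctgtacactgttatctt
mt-Co1: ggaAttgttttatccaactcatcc
Gm29216: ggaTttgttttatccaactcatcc

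The mRNAs of mt-Atp8 with mt-Atp6 and of mt-Nd4l with mt-Nd4 are each read in overlapping frames, and mt-Nd5 and mt-Nd6 meet tail to tail on opposite strands. The overlap, in capitals, is 43 bases for mt-Atp8 and mt-Atp6 (MT:7912-7984 is shown), 7 bases for mt-Nd4l and mt-Nd4 (MT:10152-10188) and 14 bases for mt-Nd5 and mt-Nd6 (MT:13537-13565, plus strand).
mt-Atp8/mt-Atp6: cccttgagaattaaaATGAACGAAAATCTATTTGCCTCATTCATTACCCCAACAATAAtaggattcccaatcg
mt-Nd4l/mt-Nd4: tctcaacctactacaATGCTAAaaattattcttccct
mt-Nd5/mt-Nd6: ttatcttatactcaaTTAATCTCGAGTAA

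The poly(A) tail also completes some mitochondrial stop codons, because the encoded mRNA ends in the first base of TAA. Of the coding genes, 10 have a length that is a multiple of 3 and 3 have 1 base beyond the last full codon. The last 18 bases of those 3 genes end in that single T, in capitals. The annotated end of mt-Nd1 is shown beside them, with TAG in capitals. Its last 2 bases are also the first of the tRNA gene mt-Ti on the same strand. In the same way mt-Nd2 shares its last 2 bases with mt-Tw. For these genes the annotated length does not tell whether the released mRNA holds a full stop codon.
mt-Co3: tttattgatgaggatctT
mt-Nd4: ttacaggcctgacaataT
mt-Cytb: tactaaaattatatccaT
mt-Nd1: gtaccaccatacataTAG

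Library totals ran from 763133 to 2617648 reads, and 22130 genes had at least 1 read. Eef1g-cKO replicate 3 stood apart, with the lowest total, the fewest genes with a read (11174, against 12770 to 15761 in the others) and the highest share of nuclear rRNA reads (9.28%, against 2.77% to 6.34%). Eef1g was at 222, 226 and 212 counts per 1000000 reads (CPM, scaled by TMM) in Control replicates 1 to 3 and at 139, 151 and 119 in Eef1g-cKO (log2 fold change -0.68 with SE 0.20, edgeR quasi-likelihood adjusted p = 0.0290). This count covers all exons, also those that were not deleted. No 2 libraries of a group agreed within sampling noise. The L/Z markers, which were present in every library, summed to 8300 to 9083 reads per 1000000 in Control and to 15664 to 17654 in Eef1g-cKO.

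Reads of the 37 mitochondrial genes took a smaller share of every Eef1g-cKO library than of any Control library, and the Control mean was 2.15 times the Eef1g-cKO mean for coding genes and 1.31 times for rRNA genes. Mitochondrial genes together held 8.48%, 10.3% and 9.12% of library reads in Control replicates 1 to 3 and 7.10%, 5.45% and 7.52% in Eef1g-cKO replicates 1 to 3. The means were 9.31% ± 0.941 and 6.69% ± 1.09 (SD, n = 3 each). The groups did not overlap, and the exact permutation test over libraries gave the smallest 2-sided p that 3 against 3 allows, 0.1 (0.133 adjusted over the 4 shares tested), so no share could pass 0.05.

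The 13 coding genes held 1.18%, 1.76% and 1.39% of reads in Control and 0.763%, 0.845% and 0.405% in Eef1g-cKO. The means were 1.44% ± 0.296 and 0.671% ± 0.234 (SD, n = 3 each, exact permutation p = 0.1, adjusted 0.133), with no overlap. Counting error was small beside this spread: the exact 95% binomial interval of the lowest library, Eef1g-cKO replicate 3, was 0.391% to 0.419%, although PCR copies are not independent molecules and such intervals cover counting error only. Without Eef1g-cKO replicate 3 the difference in means was -0.64 percentage points, against -0.77 with it.

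The 2 rRNA genes held 7.31%, 8.58% and 7.73% of reads in Control and 6.34%, 4.61% and 7.12% in Eef1g-cKO. Again every Eef1g-cKO library was below every Control library, with means of 7.87% ± 0.646 and 6.02% ± 1.28 (SD, n = 3 each, exact permutation p = 0.1, adjusted 0.133). This separation was lost when nuclear and mitochondrial rRNA reads were taken out of the denominator (exact permutation p = 0.2). The ratio of rRNA reads to coding reads was 6.21, 4.87 and 5.54 in Control and 8.30, 5.45 and 17.6 in Eef1g-cKO. The groups overlapped in this ratio (exact permutation p = 0.3, also 0.3 adjusted over 4 ratios), and the 17.6 belonged to Eef1g-cKO replicate 3.

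**Figure D1:**
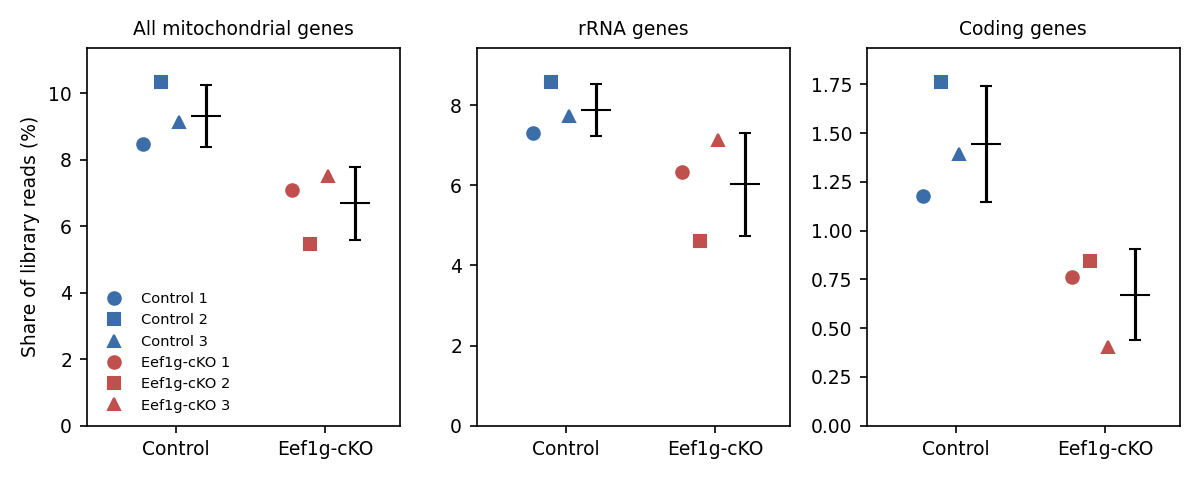
Share of library reads, in percent, held by all 37 mitochondrial genes, the 2 rRNA genes and the 13 coding genes; points are libraries and black bars the mean ± SD of each group (n = 3). The scales differ between panels and start at 0, and in each panel the 3 Eef1g-cKO points lie below the 3 Control points.

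Taken gene by gene across the transcriptome, 6 of the 13 coding genes were lower in Eef1g-cKO and none was higher. These 6 encode subunits of complexes I, III and IV and of the ATP synthase. Of the 13, 11 had enough reads for the test, and mt-Atp8 and mt-Nd4l did not. A gene was called at an edgeR quasi-likelihood adjusted p under 0.05 over 8513 tested genes; of all tested genes 6.01% were called lower and 7.8% higher. All 11 log2 fold changes (Eef1g-cKO over Control) were below 0, with a median of -0.82, and the median of all tested genes was -0.05. At an unadjusted p under 0.05, 8 of the 11 were lower, against 13.2% of all tested genes. With an absolute log2 fold change above 1 also required, 3 of the 11 were called lower, against 4.96%, and 0 higher, against 3.42%. The 6 called genes were also those whose CPM did not overlap between the groups, against 18.1% of all tested genes. Without Control replicate 2, and likewise without Control replicate 3, only mt-Cytb, mt-Co1 and mt-Nd6 were called, and the genes of the whole table called lower numbered 239 and 238, against 512 with all libraries.

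Complex III has 1 mitochondrial subunit, cytochrome b, from mt-Cytb (MT:14145-15288). Its level was 3297, 4333 and 2682 CPM in Control and 1749, 1831 and 925 in Eef1g-cKO. All 3 Eef1g-cKO libraries were below the lowest Control library, and the means of 3438 ± 835 and 1502 ± 501 CPM (SD, n = 3 each) differed by -1.19 on the log2 scale (SE 0.25, edgeR adjusted p = 0.010). This was the largest decrease of the 11 genes tested, within the SE of that of mt-Nd6.

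Complex I takes 7 subunits from mitochondrial DNA, mt-Nd1 to mt-Nd6 and mt-Nd4l, and 3 of them fell. The gene mt-Nd1 (MT:2751-3707) was at 2325, 3334 and 2994 CPM in Control and at 1936, 1892 and 1078 in Eef1g-cKO (log2 fold change -0.82 with SE 0.19, edgeR adjusted p = 0.00977). Levels of mt-Nd5 (MT:11742-13565) were 328, 584 and 473 CPM against 295, 290 and 168 CPM (log2 fold change -0.86 with SE 0.23, edgeR adjusted p = 0.0179). Neither gene overlapped between the groups, but the lowest Control and the highest Eef1g-cKO library stood closer than for mt-Cytb, and in both the lowest Control library was replicate 1.

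The gene mt-Nd6 (MT:13552-14070) is the only coding gene on the minus strand, so it comes from the transcript of the other DNA strand. It was at 301, 517 and 487 CPM in Control and at 241, 215 and 111 in Eef1g-cKO (log2 fold change -1.18 with SE 0.25, edgeR adjusted p = 0.00514). Whether counting used strand is not stated, and the transcript of the other strand runs through the same bases, so reads of mt-Nd6 and of RNA antisense to it could not be told apart. Its share of coding reads was 3.14% ± 0.540 in Control and 2.60% ± 0.343 in Eef1g-cKO, which overlapped (SD, n = 3 each, exact permutation p = 0.2, adjusted 0.729 over 17 shares).

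The other complex I genes did not pass the test. In mt-Nd2 (MT:3914-4951) the values were 1233, 2486 and 1997 CPM against 1251, 1279 and 697 CPM, so Control replicate 1 lay within the range of Eef1g-cKO (log2 fold change -0.82 with SE 0.28, edgeR adjusted p = 0.0856). For mt-Nd4 (MT:10167-11544) they were 992, 1589 and 1369 CPM against 648, 1052 and 403 CPM, and Eef1g-cKO replicate 2 was above Control replicate 1 (-0.90, SE 0.32, edgeR adjusted p = 0.1003). For mt-Nd3 (MT:9459-9806) the log2 fold change was -0.68 (SE 0.36, edgeR adjusted p = 0.226). The smallest complex I gene, mt-Nd4l (MT:9877-10173), had 2, 1 and 3 reads in Control and 0, 6 and 0 in Eef1g-cKO and was not tested, although the mt-Nd4 frame on the same mRNA had 261 to 3027 reads.

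Complex IV, cytochrome c oxidase, takes its 3 catalytic-core subunits from mt-Co1, mt-Co2 and mt-Co3, and these 3 genes gave different values. The gene mt-Co1 (MT:5328-6872) was at 2294, 3171 and 2229 CPM in Control and at 1314, 1424 and 951 in Eef1g-cKO, clear of each other, and its fall by 1.06 on the log2 scale (SE 0.17, edgeR adjusted p = 0.000494) had the lowest p of the 11. In mt-Co3 (MT:8607-9390) the values were 211, 313 and 300 CPM against 219, 254 and 122 CPM, which overlapped (-0.45, SE 0.24, edgeR adjusted p = 0.237). In mt-Co2 (MT:7013-7696) they were 194, 281 and 251 CPM against 239, 245 and 210 CPM, and all 3 Eef1g-cKO values lay inside the Control range (-0.06, SE 0.19, edgeR adjusted p = 0.871). The value of mt-Co2 turned to 0.065 without Control replicate 2 and to 0.031 without Eef1g-cKO replicate 3. Both mt-Co2 and mt-Co3 match chromosome 1 over nearly their whole length, as described further on.

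The ATP synthase takes subunit a from mt-Atp6 and the small subunit 8 from mt-Atp8. The level of mt-Atp6 (MT:7927-8607) was 135, 259 and 203 CPM in Control and 125, 132 and 75.7 in Eef1g-cKO (log2 fold change -0.82 with SE 0.26, edgeR adjusted p = 0.0453). The groups stood close, since Control replicate 1 was only just above Eef1g-cKO replicate 2, and the call was lost without any 1 of Control replicates 2 and 3 and Eef1g-cKO replicates 1 and 3. The gene mt-Atp8 (MT:7766-7969) had 9, 23 and 5 reads in Control and 2, 6 and 1 in Eef1g-cKO and was left out of the test by the low-count filter. As a share of coding reads it overlapped between the groups (exact permutation p = 0.3, adjusted 0.729).

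**Figure D2:**
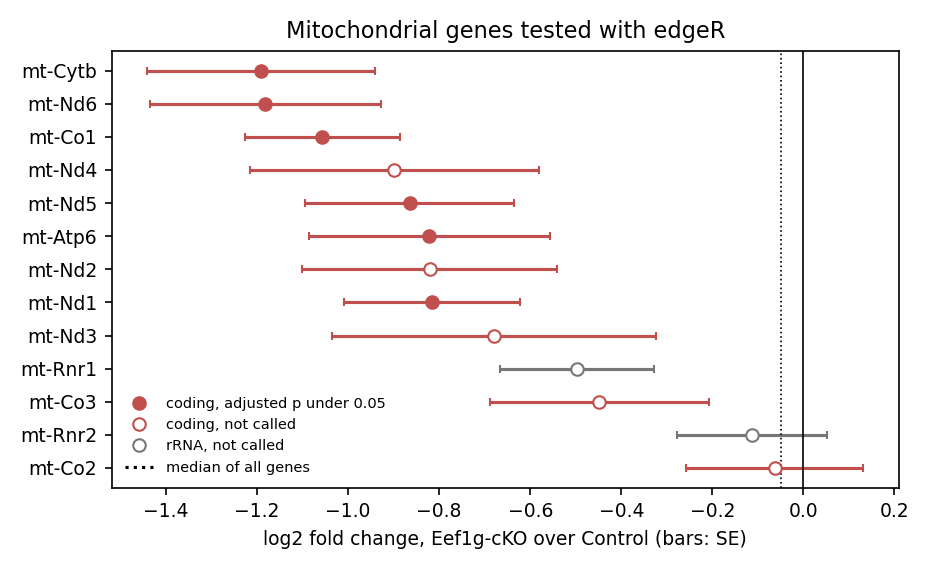
Log2 fold change (Eef1g-cKO over Control) of the 11 coding and 2 rRNA genes tested, with its SE from edgeR; filled points have an adjusted p under 0.05 and the dotted line is the median of all 8513 tested genes, -0.05. All 13 values are below 0, from -1.19 for mt-Cytb to -0.06 for mt-Co2, and 6 are called.

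Of the rRNA genes, neither passed the test. The gene mt-Rnr2 (MT:1094-2675) was at 57286, 63282 and 56660 CPM in Control and at 53121, 38889 and 71859 in Eef1g-cKO, so the highest and the lowest library were both Eef1g-cKO (log2 fold change -0.11 with SE 0.16, edgeR adjusted p = 0.706). Without Eef1g-cKO replicate 2 its log2 fold change was 0.10. In mt-Rnr1 (MT:70-1024) the values were 13312, 19301 and 15909 CPM against 13914, 8404 and 12057 CPM, overlapping through Control replicate 1 (-0.50, SE 0.17, edgeR adjusted p = 0.0607; unadjusted p = 0.00917). By reads per kilobase, mt-Rnr2 ranked 1 among all genes in every library and mt-Rnr1 ranked 2 or 3. The ratio of mt-Rnr2 to mt-Rnr1 reads was 4.30, 3.28 and 3.56 in Control and 3.82, 4.63 and 5.96 in Eef1g-cKO, which overlapped (exact permutation p = 0.2, adjusted 0.3 over 4 ratios). Each rRNA gene overlapped on the TMM-scaled CPM, whereas their summed share of library totals did not. Taken alone, the share of mt-Rnr2 in library totals also overlapped, at 6.10% in Eef1g-cKO replicate 3 against 5.93% in Control replicate 1. That of mt-Rnr1 did not, with 1.31% in the highest Eef1g-cKO library and 1.38% in the lowest Control library. The TMM factor of Eef1g-cKO replicate 3 was 0.859, against 0.958 to 1.09 in the other libraries.

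The tRNA genes drew almost no reads. As background, mature tRNAs are short and carry no poly(A) tail. Of the 22, 21 had no read in any library, which allows each a share of up to 3.17e-05% of the 9467217 reads in all. The 1 tRNA gene with reads was mt-Tp, for the proline tRNA (MT:15356-15422, minus strand). It had 5, 16 and 13 reads in Control and 1, 15 and 0 in Eef1g-cKO, which overlapped as a share of reads (exact permutation p = 0.2, adjusted 0.2). The gene lies on the strand opposite mt-Cytb, the coding gene nearest to it, and its sequence is shown as that of the only tRNA gene with reads.
mt-Tp: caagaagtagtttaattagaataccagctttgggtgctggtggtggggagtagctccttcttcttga

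Levels differed widely between the coding genes. In reads per kilobase of gene length per 1000000 library reads (RPKM), the Control means ran from 3154 for mt-Nd1 and 3138 for mt-Cytb through 1922 for mt-Nd2, 1735 for mt-Co1, 1000 for mt-Nd4 and 878 for mt-Nd6 to 371 for mt-Co2, 367 for mt-Co3, 306 for mt-Atp6, 265 for mt-Nd5 and 221 for mt-Nd3. The 2 lowest were mt-Atp8 at 37.0 and mt-Nd4l at 4.39, the latter from at most 3 reads in a Control library. The order of the means was the same in Eef1g-cKO, where mt-Nd1 was at 1598 and mt-Cytb at 1230.

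Not every step of that order exceeded the spread over libraries. In Control the ranges of neighbours overlapped between mt-Nd1 and mt-Cytb, between mt-Nd2 and mt-Co1, between mt-Nd4 and mt-Nd6, and at each step from mt-Co2 to mt-Nd3. They did not overlap from mt-Cytb to mt-Nd2, from mt-Co1 to mt-Nd4, from mt-Nd6 to mt-Co2, from mt-Nd3 to mt-Atp8 or from mt-Atp8 to mt-Nd4l. Among all genes by RPKM, mt-Cytb ranked 7, 4 and 10 in Control replicates 1 to 3 and 18, 20 and 45 in Eef1g-cKO, and mt-Nd1 ranked 8, 5 and 8 and then 13, 13 and 28. Reads of mt-Co2, mt-Co3, mt-Atp6, mt-Nd3 and mt-Nd4l are shared with chromosome 1 over nearly the whole gene, so these levels are uncertain.

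**Figure D3:**
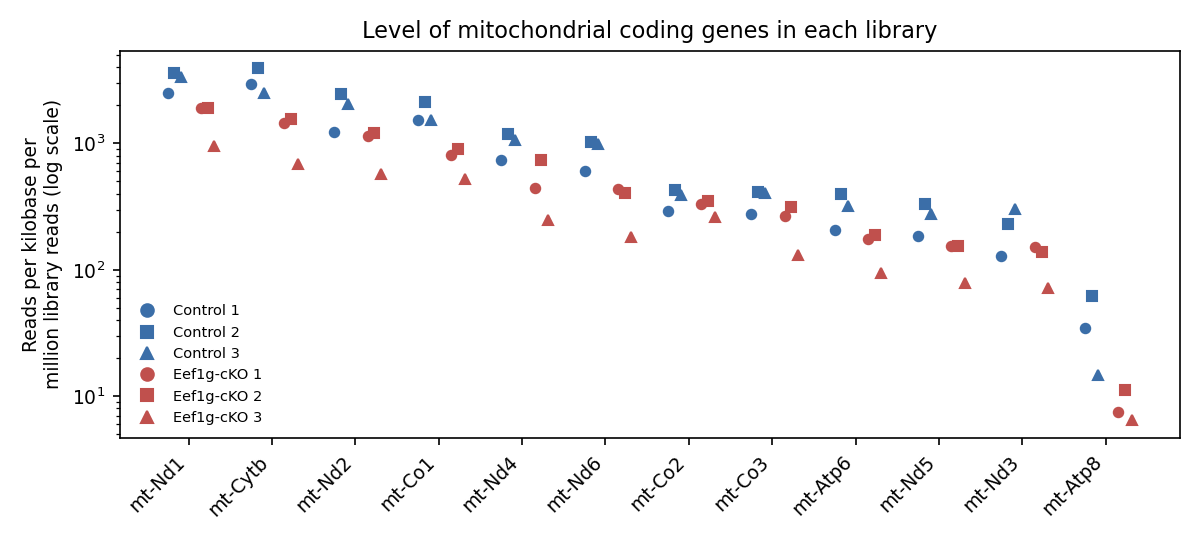
Reads per kilobase per 1000000 library reads, on a log scale, of 12 coding genes in each library, ordered by the Control mean; mt-Nd4l is left out because 2 libraries had no read. Levels fall from a Control mean of 3154 for mt-Nd1 to 37.0 for mt-Atp8, and Eef1g-cKO replicate 3 (triangles) is the lowest library for each gene drawn.

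Within the coding reads, no respiratory complex had a share that stood apart between genotypes. Complex I genes held 51.1% ± 5.37 of coding reads in Control and 54.0% ± 1.67 in Eef1g-cKO, complex III 25.02% ± 4.29 and 20.7% ± 1.19, complex IV 22.4% ± 1.26 and 23.7% ± 2.79, and the ATP synthase 1.47% ± 0.195 and 1.58% ± 0.0342 (SD, n = 3 each). The groups overlapped for each complex, with exact permutation p from 0.3 to 0.7. The share of mt-Cytb itself was 29.0%, 25.6% and 20.5% in Control and 21.7%, 21.1% and 19.4% in Eef1g-cKO, so Control replicate 3 lay among the Eef1g-cKO libraries.

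Only 2 genes had shares that did not overlap, and both were higher in Eef1g-cKO. The share of mt-Co2 was 1.71%, 1.66% and 1.92% in Control and 2.96%, 2.83% and 4.40% in Eef1g-cKO. The share of mt-Co3 was 1.85%, 1.85% and 2.29% in Control and 2.71%, 2.94% and 2.56% in Eef1g-cKO. For each the exact permutation p was 0.1, the smallest possible, and 0.729 adjusted over the 17 shares. Both genes are among the 7 with an annotated copy on chromosome 1, and these shares leave out reads given to the copies. Of the reads of gene and copy together, the copy held 69.1% to 87.1% for mt-Co2 and 70.4% to 81.3% for mt-Co3. Whether the groups stay apart with the copies counted was not tested.

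**Figure D4:**
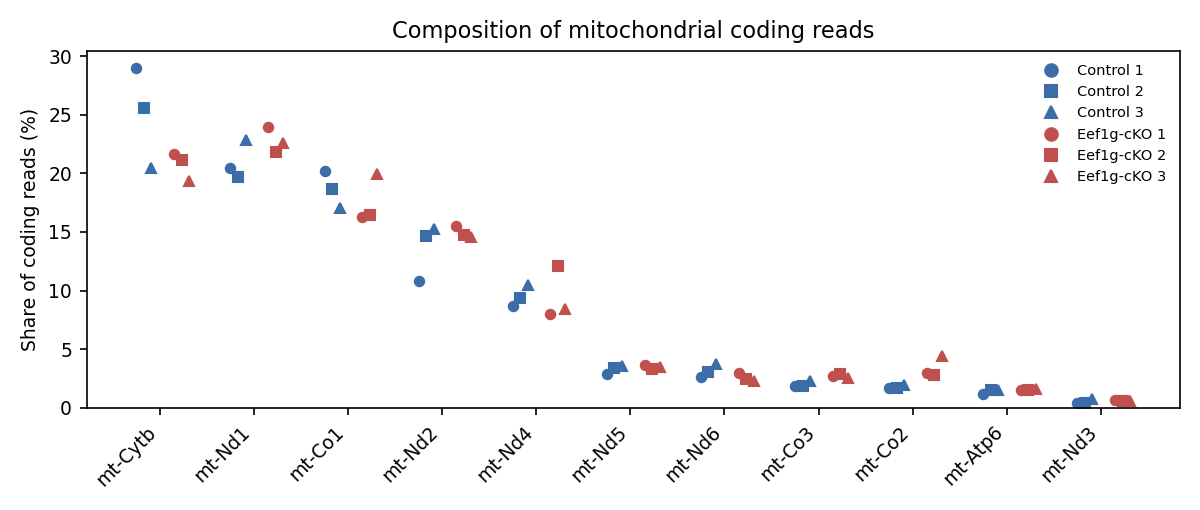
Share of each library's mitochondrial coding reads, in percent, held by 11 coding genes (mt-Atp8 and mt-Nd4l, each below 0.1%, are left out). Control and Eef1g-cKO points intermingle except for mt-Co2 and mt-Co3, where the 3 Eef1g-cKO points are higher. Reads given to the chromosome 1 copies are not counted here.

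The chromosome 1 copies drew reads in every library, and for some genes more than the mitochondrial gene itself. Aligned to their copies, mt-Co2 (681 bases, Gm28661), mt-Co3 (783 bases, Gm28437), mt-Atp6 (678 bases, Gm10925), mt-Nd4l (294 bases, Gm10222) and the first 876 bases of mt-Nd4 (Gm28439) were identical. The match was 99.7% for mt-Nd3 (345 bases, Gm28438) and 99.8% for the last 483 bases of mt-Co1 (Gm29216). Of all windows of 150 bases, the read length, the share also present in a nuclear transcript was 99.4% for mt-Co2, 99.8% for mt-Co3, 99.4% for mt-Atp6, 98.0% for mt-Nd4l and 97.0% for mt-Nd3. It was 59.2% for mt-Nd4 and 23.6% for mt-Co1, and no window of mt-Nd1, mt-Nd2, mt-Nd5, mt-Nd6, mt-Cytb, mt-Atp8 or either rRNA was found. Only annotated transcripts were searched, so unannotated nuclear DNA was not covered. This matters for mt-Atp8, which follows mt-Co2 and overlaps mt-Atp6, both matched in this stretch. The last 43 bases of mt-Atp8 are also the first of mt-Atp6 and lie within the match to Gm10925.

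Of the reads given to a gene and its copy together, the copy held 69.1% to 87.1% for mt-Co2, 70.4% to 81.3% for mt-Co3, 56.3% to 63.2% for mt-Atp6 and 40.6% to 66.3% for mt-Nd3. For mt-Co1 it held 15.3% to 38.8%, and for mt-Nd4 1.58% to 3.49%, although 59.2% of the mt-Nd4 windows match. How reads with several alignments were counted is not stated, and which of the 2 places a read came from cannot be told from counts. A further 9 nuclear genes matched a coding gene at 90.7% to 97.6% identity over at least 100 bases, and they had at most 12 reads in a library.

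Whether reads were lost to these copies unequally between genotypes was checked with the counts of each copy. The 7 copies held 0.201%, 0.476% and 0.388% of library reads in Control and 0.210%, 0.230% and 0.220% in Eef1g-cKO, which overlapped through Control replicate 1 (exact permutation p = 0.4). None of the 6 copies tested was called by edgeR, and 2 were lower at an unadjusted p under 0.05, against 13.2% of all tested genes. Coding genes and copies together held 1.38%, 2.24% and 1.78% in Control and 0.973%, 1.07% and 0.625% in Eef1g-cKO, again without overlap, and the Control mean was 2.02 times the Eef1g-cKO mean (exact permutation p = 0.1).

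With each copy's reads added to its gene, 5 coding genes were called lower instead of 6. The log2 fold change of mt-Co1 became -0.85 (edgeR adjusted p = 0.00562), and mt-Atp6 lost its call at -0.80 (edgeR adjusted p = 0.0537). For mt-Co2 it became -0.31 (edgeR adjusted p = 0.727) and for mt-Co3 -0.62 (edgeR adjusted p = 0.0818), both further below 0 than without the copy. Of the 6 coding genes with no annotated copy there, 5 were tested and 4 were called lower, with a median log2 fold change of -0.86. Of the 7 with an annotated copy, 6 were tested and 2 were called lower, mt-Co1 and mt-Atp6, with a median of -0.75.

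**Figure D5:**
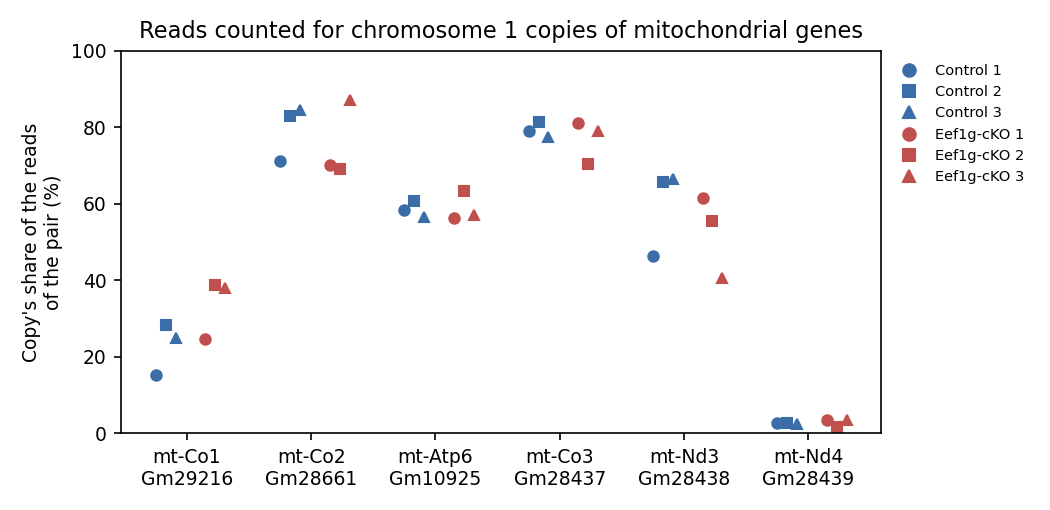
Share of the reads of each gene pair, in percent, that was counted for the chromosome 1 copy, by library (mt-Nd4l, with at most 7 reads per pair, is left out). The copy of mt-Co2 held 69.1% to 87.1% and the copy of mt-Nd4 1.58% to 3.49%, and Control and Eef1g-cKO libraries overlap in each pair.

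The sorted cells did not hold the same mixture of marker RNA in both genotypes. By immunostaining of sorted cells, the paper reports a comparable enrichment of L/Z spermatocytes in Control and Eef1g-cKO. Of the 8 spermatogonial markers, which belong to the germ cells before meiosis, 5 were tested and 4 were called lower. The list summed to 1431 to 1647 reads per 1000000 in Control and 636 to 777 in Eef1g-cKO. Nanos3 was at 0 in all Eef1g-cKO libraries and had 14 reads over the Control libraries. Of the 8 L/Z markers 4 were called higher and 1 lower. Among all tested genes, for this and the other marker lists, 6.01% were called lower and 7.8% higher. The 8 Sertoli cell markers summed to 85.3 to 304 reads per 1000000 in Control and 1.31 to 42.8 in Eef1g-cKO (2 of 4 tested called lower). Amh and Gata4 were at 0 in Eef1g-cKO but had only 2 and 4 reads over the Control libraries. Rhox5 went the other way, with 8 reads in Control and 18 in Eef1g-cKO, each from replicate 2. The 5 peritubular and stromal markers summed to 106 to 219 and 10.5 to 44.7 (2 of 3 called lower).

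Markers of the remaining cell types were low. The 8 markers of pachytene and later germ cells summed to 25.1 to 45.9 reads per 1000000 in Control and 2.62 to 18.0 in Eef1g-cKO (1 of 2 tested called lower). The 5 Leydig cell markers summed to 8.94 to 11.1 and 1.53 to 6.11, with 4 of 5 at 0 in all Eef1g-cKO libraries and none tested. Of these 4, Cyp17a1 and Hsd3b1 were at 0 in all Control libraries too, and Insl3 and Cyp11a1 had 2 Control reads each. The 7 blood and macrophage markers summed to 7.15 to 80.6 and 3.06 to 64.2 and overlapped. The part of these differences in the mitochondrial values was not tested, and in bulk RNA fewer cells of a type and less RNA per cell cannot be told apart.

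Nuclear genes that transcribe, process and degrade mitochondrial RNA mostly did not pass the test. Of the 6 tested transcription genes and of the 15 tested RNA processing genes, none was called by edgeR, and at an unadjusted p under 0.05 there were 0 and 2, both lower, where 13.2% of all tested genes were lower and 14.3% higher. Values follow for Control and then Eef1g-cKO. Polrmt, the polymerase, was at 9.57 ± 3.44 CPM and 11.4 ± 2.90 CPM in the same order (SD, n = 3 each; log2 fold change 0.21 with SE 0.69, edgeR adjusted p = 0.875). Tfam was at 72.3 ± 5.86 and 65.3 ± 10.7 CPM (-0.15, SE 0.29, edgeR adjusted p = 0.795). Lrpprc, which stabilises mitochondrial mRNAs, was at 169 ± 32.6 and 159 ± 61.7 CPM (-0.12, SE 0.26, edgeR adjusted p = 0.818). All 3 overlapped between the groups, as did Mtpap, the mitochondrial poly(A) polymerase, at 32.7 ± 8.09 and 21.4 ± 7.98 CPM (-0.57, SE 0.45, edgeR adjusted p = 0.452).

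Among the 4 RNA decay genes, Rexo2, an exonuclease that degrades short RNA fragments in mitochondria, was called lower: 61.8, 63.0 and 61.6 CPM in Control and 20.2, 13.7 and 13.9 in Eef1g-cKO, far apart (-1.96, SE 0.38, edgeR adjusted p = 0.00216). Among the 13 tested genes of mitochondrial DNA maintenance 1 was called lower, where 6.01% of all tested genes were. It was Top1mt, the mitochondrial topoisomerase, at 30.5, 13.6 and 17.4 CPM against 3.23, 1.96 and 3.09 CPM (-2.92, SE 0.74, edgeR adjusted p = 0.0128). None of the 14 RNA modification genes or the 12 mitochondrial translation factor genes tested was called, with 1 of the first lower and 1 of each higher at an unadjusted p under 0.05. At that limit 13.2% of all tested genes were lower and 14.3% higher.

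Of the 5 tested regulators of mitochondrial biogenesis, Gabpa, which encodes a subunit of nuclear respiratory factor 2, was called higher (log2 fold change 0.72, edgeR adjusted p = 0.0262). Nrf1 was at 46.1 ± 7.58 and 46.5 ± 6.55 CPM (0.0040, SE 0.34, edgeR adjusted p = 0.994), and Ppargc1a had too few reads to be tested, 0 in each Control library and 0, 3 and 2 in Eef1g-cKO. Of the 11 genes taken as a measure of mitochondrial content, 1 was called in each direction, near the shares of 6.01% lower and 7.8% higher among all tested genes: Tomm20, the import receptor, at 0.84 (edgeR adjusted p = 0.0374) with overlapping libraries, and Phb, prohibitin, at -2.47 (edgeR adjusted p = 0.0390). Of the 10 tested mitochondrial chaperones and proteases, Hspe1, the partner of the chaperonin HSP60, fell from 903 ± 73.7 to 387 ± 59.2 CPM (-1.22, edgeR adjusted p = 7.09e-05), and Clpp, a matrix protease, from 33.3 ± 2.19 to 11.0 ± 3.92 CPM (-1.65, edgeR adjusted p = 0.0345).

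Of 76 tested nuclear subunits of complexes I, III and IV and the ATP synthase, the partners of the mitochondrial subunits, 12 were called lower and 5 higher, where 6.01% and 7.8% of all tested genes were, with a median log2 fold change of -0.11 against -0.82 for the mitochondrial subunits. Their summed share of library reads was 2.02%, 2.07% and 2.26% in Control and 2.01%, 2.26% and 1.46% in Eef1g-cKO, and unlike the share of the mitochondrial coding genes it overlapped. Many of these genes have processed pseudogenes, which were not checked here.

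In complex I, 4 of 36 nuclear subunits were called higher and 3 lower, shares near the 7.8% and 6.01% of all tested genes. Ndufab1, the acyl carrier protein, rose from 194 ± 11.9 to 365 ± 56.7 CPM (log2 fold change 0.92, edgeR adjusted p = 0.00244), and Ndufa1 rose by 0.85 (edgeR adjusted p = 0.00367). Ndufv3 and Ndufs8 had the largest decreases, with log2 fold changes of -2.93 (edgeR adjusted p = 0.00746) and -1.14 (edgeR adjusted p = 0.0395).

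For the counts that follow, 6.01% of all tested genes were called lower and 7.8% higher. In complex III, 2 of 9 were called lower, Uqcr11 (-1.23, edgeR adjusted p = 0.000913) and Uqcrh (-0.78, edgeR adjusted p = 0.00557). In complex IV, 4 of 14 were called lower and none higher, with the largest decreases in Cox8a (-1.94, edgeR adjusted p = 0.0162) and Cox6b1 (-1.07, edgeR adjusted p = 0.0113). In the ATP synthase, Atp5f1, the stalk subunit b, rose from 807 ± 108 to 1651 ± 44.1 CPM (1.03, edgeR adjusted p = 0.000133), and 3 of 17 fell, led by Atp5g1 (-1.36, edgeR adjusted p = 0.00759) and Atp5o (-0.83, edgeR adjusted p = 0.0240). Complex II, the 1 complex with no mitochondrial subunit, had 1 of 4 called, Sdhc, which was higher (1.00, edgeR adjusted p = 0.00872).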

How the data were processed

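RNA-seq libraries were prepared with a full-length mRNA amplification kit without molecular identifiers and sequenced as 150 bp paired-end reads. The authors filtered reads with fastp, aligned them to GRCm38 with HISAT2 2.2.1 and counted them with featureCounts 2.0.6. Raw counts per gene were deposited. The settings for strand and for reads with several alignments are not given in the sources used here. Columns were matched to samples by name and groups taken from titles. Shares of library totals, of coding reads and ratios were compared with 2-sided exact permutation tests over libraries (3 against 3). Counts were tested with edgeR 4.0.16 in R 4.3.3 (filterByExpr with a minimum count of 10, TMM, robust quasi-likelihood F test, genotype only), and p-values were adjusted by Benjamini-Hochberg over 8513 genes. The SE was taken as the size of the log2 fold change over the root of F. Limits for a count of 0 assume 3 reads. Matches to nuclear transcripts of GENCODE vM21 were found with blastn 2.17.0 (at least 90% identity over 100 bases). The edgeR, DESeq2 1.42.0 and limma 3.58.1 scripts were tested on simulated data. Named genes were all coding and rRNA genes, tRNA genes with reads, 6 regulators (Polrmt, Tfam, Lrpprc, Mtpap, Ppargc1a, Nrf1), Eef1g and, of each nuclear list, up to 2 called members per direction with the largest change. The genes and lists were chosen with earlier results of these data known. Alternatives were other scalings, filters, denominators and tools, a replicate block, a GC offset and leaving out each library. The summed copy counts, the fold change limit and the unadjusted p were added after seeing the data.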

Additional observations from a re-analysis of the deposited data

How the results depend on the processing

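The genes mt-Cytb, mt-Co1 and mt-Nd6 were called lower under all 14 alternative fits and the 6 that left out a library. The number of coding genes called lower was 6 in the main analysis, 10 with the GC content offset, 3 with the fold change limit, and 3 to 7 when 1 library was left out; it was 6 to 8 under the other scalings, filters and tools. Scaling moved the median of all genes from -0.05 to -0.17 (upper-quartile scaling) and -0.24 (library totals alone), and dropping the low-count filter moved it to -0.30; the coding medians were then -0.94, -0.999 and -0.78. Of the rRNA and tRNA genes, 0 were called lower, but 1, mt-Rnr1, with upper-quartile scaling, library totals alone, a minimum of 10 reads in each library, no low-count filter, limma-voom or an unadjusted p, 2 with the GC content offset with or without the replicate block, and 0 to 1 when 1 library was left out. When 1 library was left out, the log2 fold change ran from -0.19 to 0.065 for mt-Co2, above 0 without Control replicate 2 (0.065) and without Eef1g-cKO replicate 3 (0.031), and from -0.33 to 0.10 for mt-Rnr2, above 0 without Eef1g-cKO replicate 2. When 1 library was left out, the difference (Eef1g-cKO minus Control) in the share of coding reads ran from -0.0066 to 0.169 percentage points for the ATP synthase and from -0.33 to 2.14 for complex IV. Shares of single coding genes other than mt-Nd6, and ratios other than mt-Rnr2 to mt-Rnr1, were not recomputed. Of the members of nuclear lists, 8 were called higher and 17 lower; 4 were higher with upper-quartile scaling, library totals or the minimum of 10 reads in each library, 14 with limma-voom, and leaving out 1 library gave 3 to 13 higher and 7 to 22 lower. Over all genes 664 were higher and 512 lower; 333 were higher when scaled by library totals, 437 after the GC content offset and 291 with the fold change limit, and leaving out 1 library gave 374 to 834 higher and 238 to 668 lower. Eef1g missed the threshold with no low-count filter (-0.64, edgeR adjusted p = 0.0837) and with the GC content offset (-0.51, edgeR adjusted p = 0.112), and ran from -0.75 to -0.56 when 1 library was left out. The cause of these changes was not tested.

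Libraries of the 2 groups with the same replicate number did not deviate together (correlations of -0.037, 0.019 and -0.049 across 8513 genes). These correlations cannot tell which libraries shared a litter or a sort, and the main test did not pair them. With the replicate block 7 coding genes were called lower, 5 of them among the 6, since mt-Atp6 was lost and mt-Nd2 and mt-Nd4 were gained; 5 nuclear list members were higher, and Eef1g was at -0.69 (edgeR adjusted p = 0.0585). With both block and GC content offset, 338 of all genes were higher, 9 coding genes were lower, and Eef1g was at -0.52 (edgeR adjusted p = 0.162). Few reads kept mt-Atp8, mt-Nd4l and the tRNA genes out of the main edgeR test; with no low-count filter all 13 coding genes were tested, and all 13 log2 fold changes were below 0.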
